A study of Mus musculus with 12 samples.

Results

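The genes described here are 36 mouse genes used as markers of the principal neurons of the hippocampus. They were taken as a given list, which was chosen with earlier results of these data known. Matching was by Entrez ID to the 27179 gene IDs of the count table. All 36 were found. They were arranged by subfield as 11 genes of dentate granule cells, 8 of CA1 pyramidal cells, 4 of CA3 pyramidal cells, 5 of CA2 pyramidal cells, 4 shared by several subfields and 4 of mossy cells and others. The borders between these sets were drawn for this report from the order of the list, and the last set is the least certain, since its genes are also expressed in other cells.

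The RNA came from whole hippocampus of mice aged 3 months, in 6 WT and 6 Nell-1+/6R animals, with 3 females and 3 males of each genotype. Nell-1+/6R mice carry one copy of the 6R allele of Nell1, a germline loss-of-function allele induced with ENU, so every cell of the body is haploinsufficient. The WT mice were littermates. The titles of the WT samples also hold the abbreviation for heterozygous, while their genotype field gives WT. Nell1 itself, the label check, ranged from 30.6 to 44.0 CPM (counts scaled to a library of 1000000) with a median of 35.9 in WT, and from 17.2 to 20.8 with a median of 19.1 in Nell-1+/6R. The genotypes did not overlap, at a log2 fold change of -0.93 (SE 0.08, adjusted p = 0.00015, edgeR quasi-likelihood test with Benjamini-Hochberg adjustment).

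The hippocampus passes signals through a chain of cell types. Granule cells of the dentate gyrus receive the input from the entorhinal cortex and send mossy fibers to CA3 pyramidal cells and to the mossy cells of the hilus, and CA3 cells in turn excite CA1. CA2 is a small field between CA3 and CA1 that has been tied to social memory. Each field keeps its own set of transcription factors, synaptic organizers, channels and calcium-binding proteins in the adult, so that a few genes are enough to tell the fields apart. In RNA from whole tissue, fewer cells of a type and less RNA per cell cannot be told apart.

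Total counts lay between 10834905 and 16016317 per mouse. In all, 17937 genes reached 0.2 CPM in 2 or more mice and were tested, and all 36 subfield genes were among them. Libraries differed in tissue from beside the hippocampus. The summed level of 10 choroid plexus genes was 793 to 5200 CPM in 4 mice (female WT replicates 1 and 2, female Nell-1+/6R replicate 1 and male WT replicate 3) and 42.6 to 132 CPM in the other 8. The summed level of 12 leptomeningeal fibroblast genes ran from 133 to 458 CPM in WT with a median of 252, and from 72.9 to 413 in Nell-1+/6R with a median of 111. Much of that sum is Igf2, which is highest in 3 of the 4 mice rich in choroid plexus RNA (223, 320 and 281 CPM). Without Igf2 and Slc13a4, left out after their values were seen, the other 10 genes summed to 71.1 to 192 CPM in WT and 33.2 to 121 in Nell-1+/6R. The exons of 9 subfield genes overlap those of another gene, 7 of them on the opposite strand (Prox1, Dsp, Man1a, Lypd1, Zbtb20, Amigo2 and Map3k15) and 2 on the same strand (Maml2 and Pcp4). The sources used here do not give the strand setting of the counting, and reads in those stretches may belong to either gene.

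The defining genes of every field were present. Levels between genes are given as CPM per kilobase of exon. Dkk3, a secreted protein of the Dickkopf family and here the leading CA3 gene, was the highest of the 36 at 145 ± 8.75 (SD over all 12 mice). Neurod2 and Neurod6, bHLH transcription factors of excitatory forebrain neurons, followed at 95.0 ± 11.9 and 87.8 ± 8.63, and these neighbours in the order overlapped from mouse to mouse. The leading CA1 gene was Mpped1, which encodes a metallophosphoesterase, at 65.5 ± 4.43. The leading CA2 gene was Pcp4, a calmodulin-binding protein, at 53.3 ± 8.46. Fibcd1 of CA1 and C1ql2 of the dentate gyrus stood at almost the same level, 42.0 ± 5.39 and 41.8 ± 8.08. Calb2, which encodes the calcium-binding protein calretinin of mouse mossy cells and of some interneurons, led its set at 11.9 ± 3.21. The lowest were Glis3, a zinc finger transcription factor, at 0.652 ± 0.198 and Map3k15, a protein kinase gene of CA2, at 0.542 ± 0.189, so the list spanned a 268-fold range.

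**Figure D1:**
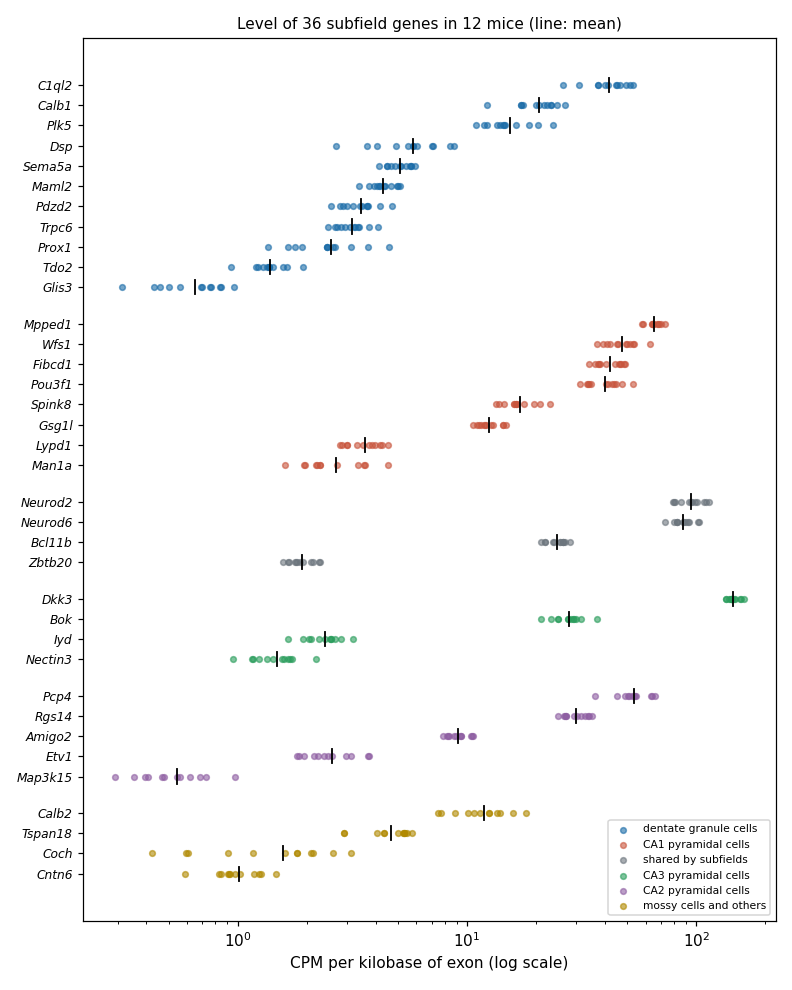
Level of each of the 36 genes in CPM per kilobase of exon on a log axis, arranged by subfield, with 1 point per mouse (12 mice) and a black line at the mean. Dkk3 has the highest mean at 145 and Map3k15 the lowest at 0.542.

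How much a gene varied among mice of one genotype differed widely within the list. As the SD of log2 CPM within genotype, spread was largest for Coch at 0.78, then for Dsp at 0.51, Prox1 at 0.49, Glis3 at 0.47 and Man1a at 0.46. It was smallest for Dkk3 at 0.08 and Mpped1 at 0.09. The median over the 36 genes was 0.25, and over all genes tested it was 0.22. Among the 500 genes closest to it in mean CPM, Dsp, the desmosomal protein desmoplakin, was more variable than 99.4%, and Coch than 97.8%. Prox1, the homeobox factor that fixes granule cell identity, was above 96.0% of its own 500, and 10 of the 36 genes were above at least 90% of theirs.

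The main question was whether the subfield genes differed between genotypes. The list was chosen with earlier results of these data known, so its counts are a description and no test of the list. At an unadjusted p under 0.05, 6 of the 36 were called, where 3.26% of all genes tested were. Of these 6, C1ql2, Plk5, Pdzd2 and Coch were lower in Nell-1+/6R, where 2.2% of all genes were called lower, and Fibcd1 and Spink8 were higher, where 1.06% were called higher. None passed the Benjamini-Hochberg adjustment in edgeR, DESeq2 or limma-voom, against 0.039% of all genes in edgeR, and the adjusted p of each of the 36 was 0.9995 in edgeR. Coch alone also passed a fold of 1.5, as 1.46% of all genes did. In none of the 36 genes were the genotypes fully apart in CPM, a pattern seen in 0.151% of all genes. Over the 36 genes, 18 were lower and 18 higher in Nell-1+/6R. Their median log2 fold change was 0.01, and over all genes tested the median was -0.00076.

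**Figure D2:**
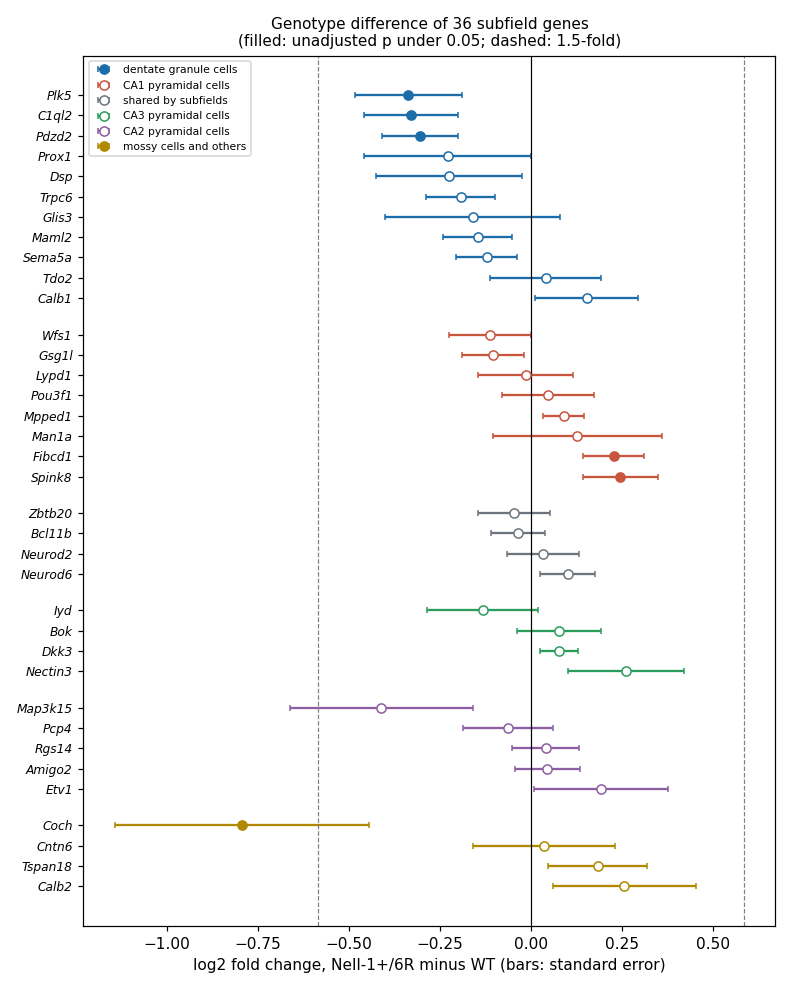
Log2 fold change of each of the 36 genes, Nell-1+/6R minus WT, with its standard error as a bar, colored by subfield. Filled points mark the 6 genes with an unadjusted p under 0.05 and dashed lines mark a fold of 1.5. Dentate genes lie mostly left of 0 and Coch lies farthest left at -0.79.

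The promoters of the 4 genes called lower are shown, because 3 of them belong to one cell type, together with 1 of a gene called higher. RefSeq promoters (GRCm38.p6, 250 bases before to 50 bases after the transcript start) were at hand for 27 of the 36 genes, which have 33 promoters together. They were searched on both strands for CANNTG, the E-box that bHLH factors such as Neurod2 and Neurod6 recognize, and for its form CATCTG, also read on the other strand and itself an E-box. An E-box was present in 19 of the 33 promoters and in 72.3% of all 32851 promoters of this length. That form, on either strand, was present in 6 of the 33 and in 17.2% of all. The sequences run 5′ to 3′ on the strand of the gene, with each E-box in capitals, and a match is a description of these letters only. C1ql2 is at chr1:120340332-120340631 (plus strand), Plk5 at chr10:80356209-80356508 (plus strand), Pdzd2 at chr15:12739843-12740142 (minus strand), Coch at chr12:51593091-51593390 (plus strand), and Fibcd1 of CA1, for contrast, at chr2:31845956-31846255 (minus strand).
C1ql2: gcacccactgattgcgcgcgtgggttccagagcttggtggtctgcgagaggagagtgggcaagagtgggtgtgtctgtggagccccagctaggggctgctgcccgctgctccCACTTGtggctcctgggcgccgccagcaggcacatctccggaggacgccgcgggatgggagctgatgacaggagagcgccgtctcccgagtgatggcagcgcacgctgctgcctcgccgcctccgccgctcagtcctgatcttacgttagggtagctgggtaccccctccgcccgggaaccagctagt
Plk5: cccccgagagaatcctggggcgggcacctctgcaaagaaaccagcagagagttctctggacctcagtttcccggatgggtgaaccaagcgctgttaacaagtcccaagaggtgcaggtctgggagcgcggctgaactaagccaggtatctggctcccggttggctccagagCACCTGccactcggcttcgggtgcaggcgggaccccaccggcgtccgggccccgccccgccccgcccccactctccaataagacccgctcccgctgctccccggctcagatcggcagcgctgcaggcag
Pdzd2: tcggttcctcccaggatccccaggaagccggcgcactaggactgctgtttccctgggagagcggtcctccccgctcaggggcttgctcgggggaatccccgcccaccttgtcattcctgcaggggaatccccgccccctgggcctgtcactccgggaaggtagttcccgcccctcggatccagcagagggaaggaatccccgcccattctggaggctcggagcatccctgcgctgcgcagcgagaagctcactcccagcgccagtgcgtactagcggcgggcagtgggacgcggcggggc
Coch: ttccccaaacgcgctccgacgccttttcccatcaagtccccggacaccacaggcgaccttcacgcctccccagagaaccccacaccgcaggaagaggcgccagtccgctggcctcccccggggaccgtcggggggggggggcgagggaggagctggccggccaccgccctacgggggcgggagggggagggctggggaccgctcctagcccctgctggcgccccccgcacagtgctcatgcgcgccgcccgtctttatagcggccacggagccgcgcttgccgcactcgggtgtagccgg
Fibcd1: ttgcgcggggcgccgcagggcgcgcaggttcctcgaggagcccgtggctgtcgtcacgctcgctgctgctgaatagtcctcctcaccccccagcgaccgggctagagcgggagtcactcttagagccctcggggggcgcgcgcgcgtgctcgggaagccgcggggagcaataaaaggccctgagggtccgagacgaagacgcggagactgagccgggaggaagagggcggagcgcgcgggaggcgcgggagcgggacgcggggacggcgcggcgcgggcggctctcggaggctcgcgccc
C1ql2 and Plk5 hold 1 E-box each, with different central bases, and Pdzd2, Coch and Fibcd1 hold none in this window.

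Dentate granule cell genes were mostly lower in Nell-1+/6R, in 9 of 11, where 50.3% of all genes were lower, and the median was -0.19 on the log2 scale. Of the 11, 3 were called, where 3.26% of all genes were. C1ql2 is a secreted C1q-family protein of mossy fiber synapses, which gathers kainate receptors opposite the granule cell terminals. Its level was between 82.1 and 106 CPM with a median of 91.4 in WT, and between 52.2 and 102 with a median of 74.6 in Nell-1+/6R. All Nell-1+/6R mice but male replicate 3 lay below the lowest WT mouse. The log2 fold change was -0.33 (SE 0.13, unadjusted p = 0.023, adjusted p = 0.9995, edgeR). The call was lost in 3 of the 12 fits that left out 1 mouse, in males alone and without the 4 mice with the most choroid plexus RNA (-0.23). That last fit takes out more WT than Nell-1+/6R mice, and 1.75% of all genes were called in it. Plk5, a member of the polo-like kinase family found in neurons, had 36.2 to 63.6 CPM with a median of 41.4 in WT and 29.4 to 49.8 with a median of 35.1 in Nell-1+/6R. The 3 male Nell-1+/6R mice were below every WT mouse and the 3 females lay within the WT range, at a log2 fold change of -0.34 (SE 0.15, unadjusted p = 0.038, edgeR). This call was lost in 8 of those 12 fits, in limma-voom with and without sex, and in females alone. Pdzd2, a scaffold with many PDZ domains, had 52.8 to 86.7 CPM with a median of 68.0 in WT and 47.0 to 64.0 with a median of 57.0 in Nell-1+/6R. All 6 Nell-1+/6R mice were below the WT median, while female WT replicate 1 was as low as they were. The log2 fold change was -0.30 (SE 0.10, unadjusted p = 0.012, edgeR), and of the 3 genes Pdzd2 alone was called in every fit that left out 1 mouse, though not in females alone. Within females, in a model of all 12 mice, it was -0.24 (SE 0.15).

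The 8 other dentate genes had log2 fold changes from -0.23 to 0.15, with unadjusted p from 0.062 to 0.80. Prox1 was between 16.0 and 38.2 CPM in WT and between 11.4 and 31.1 in Nell-1+/6R, at -0.23 (SE 0.23), and at -0.42 to -0.07 when 1 mouse was left out. Dsp was between 26.03 and 84.4 CPM in WT with a median of 61.9, and between 35.3 and 68.9 in Nell-1+/6R with a median of 51.7, at -0.23 (SE 0.20). The lowest value of Dsp was in female WT replicate 1. Dsp was called without that mouse, in males alone and without the 4 mice with the most choroid plexus RNA. Trpc6, a calcium-permeable cation channel, had the smallest p of these at -0.19 (SE 0.10), and the Notch coactivator Maml2, the guidance molecule Sema5a and Glis3 were also below 0. Calb1, the calcium buffer calbindin that mature granule cells and CA1 cells contain, went the other way at 0.15 (SE 0.14), and so did the tryptophan-degrading enzyme Tdo2 at 0.04 (SE 0.15). The set was therefore mixed in direction.

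Mouse by mouse, the mean of the 11 dentate genes, as log2 CPM centred on the mean of all mice, was lowest in male Nell-1+/6R replicate 2 at -0.32 and in female Nell-1+/6R replicate 2 at -0.30. Female WT replicate 1 at -0.18 and female Nell-1+/6R replicate 1 at -0.17 came next. The highest were the 3 male WT mice at 0.14, 0.23 and 0.19. Female Nell-1+/6R replicate 3 at 0.11 and male Nell-1+/6R replicate 3 at 0.13 lay among the WT mice, so the genotypes overlapped. In the pyramidal cell sets the means lay closer together, from -0.12 to 0.15 for CA1 genes, from -0.12 to 0.20 for CA3 genes and from -0.18 to 0.15 for CA2 genes. The mossy cell set was the widest, from -0.45 to 0.31, and its lowest mouse, female Nell-1+/6R replicate 2, is one of those low in Coch.

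**Figure D3:**
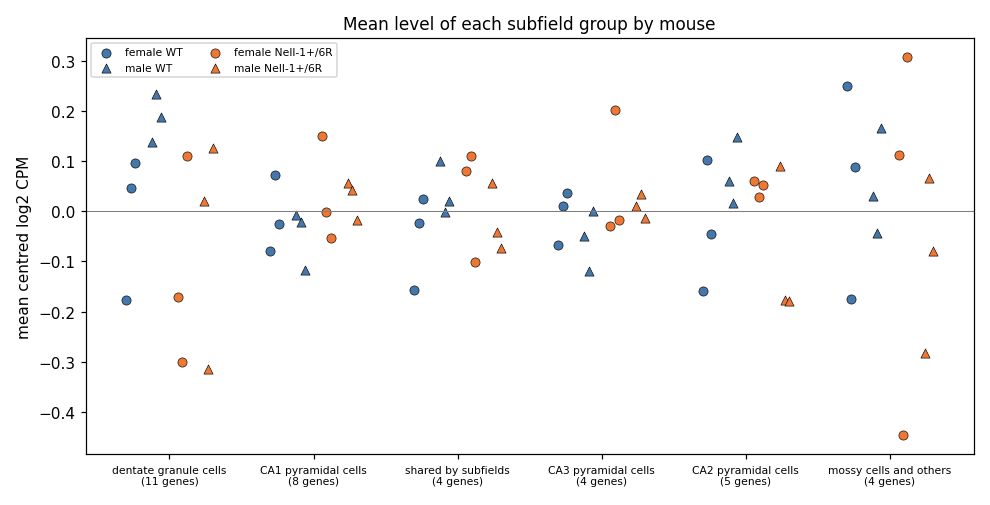
Mean centred log2 CPM of the genes of each set, with 1 point per mouse, blue for WT and orange for Nell-1+/6R, circles for females and triangles for males. The dentate means reach from -0.32 to 0.23, and the genotypes overlap in every set.

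CA1 genes held the 2 genes called higher, where 1.06% of all genes were called higher. Of the 8 genes 5 were higher and 3 lower, where 50.3% of all genes were lower, at a median of 0.07 on the log2 scale. Fibcd1, a membrane receptor with a fibrinogen-like domain that binds acetylated ligands, had 161 to 221 CPM with a median of 179 in WT and 176 to 232 with a median of 220 in Nell-1+/6R. In each genotype 1 female, replicate 3 in both, lay on the side of the other genotype. The log2 fold change was 0.23 (SE 0.08, unadjusted p = 0.017, adjusted p = 0.9995, edgeR), and it was called in every fit that left out 1 mouse, though not in females alone. Within females, in a model of all 12 mice, it was 0.21 (SE 0.12). The log2 fold change of Fibcd1 was 0.10 with an unadjusted p of 0.36 (edgeR) without the 4 mice with the most choroid plexus RNA. Those 4 include the 2 lowest WT mice and the highest Nell-1+/6R mouse for Fibcd1. Leaving them out takes more WT than Nell-1+/6R mice, and 1.75% of all genes were called in that fit. Spink8, a Kazal-type protease inhibitor enriched in CA1 of the mouse hippocampus, had 11.3 to 13.4 CPM with a median of 13.2 in WT and 10.9 to 18.9 with a median of 15.4 in Nell-1+/6R. The 3 female Nell-1+/6R mice were the highest of all 12, and male Nell-1+/6R replicate 3 was the lowest. The log2 fold change was 0.25 (SE 0.10, unadjusted p = 0.033, edgeR). The call was lost in 7 of the 12 fits that left out 1 mouse, with a replicate block, in limma-voom with genotype alone, in males alone and without the 4 mice with the most choroid plexus RNA.

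The 6 other CA1 genes had log2 fold changes from -0.11 to 0.13, with unadjusted p of at least 0.14. Mpped1 was between 251 and 278 CPM with a median of 276 in WT and between 248 and 314 with a median of 294 in Nell-1+/6R. It was above the WT range in 5 of 6 Nell-1+/6R mice and below it in 1, at 0.09 (SE 0.06). Man1a, a Golgi mannosidase that trims N-glycans, was the most variable CA1 gene, at 15.6 to 34.7 CPM in WT and 18.7 to 43.6 in Nell-1+/6R. Its log2 fold change was 0.13 (SE 0.23). Wfs1, the endoplasmic reticulum protein altered in Wolfram syndrome, was at -0.11 (SE 0.11), and Gsg1l, an auxiliary subunit of AMPA receptors, at -0.10 (SE 0.09). The POU factor Pou3f1 stood at 0.05 (SE 0.13), and Lypd1, a modulator of nicotinic receptors, at -0.01 (SE 0.13).

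**Figure D4:**
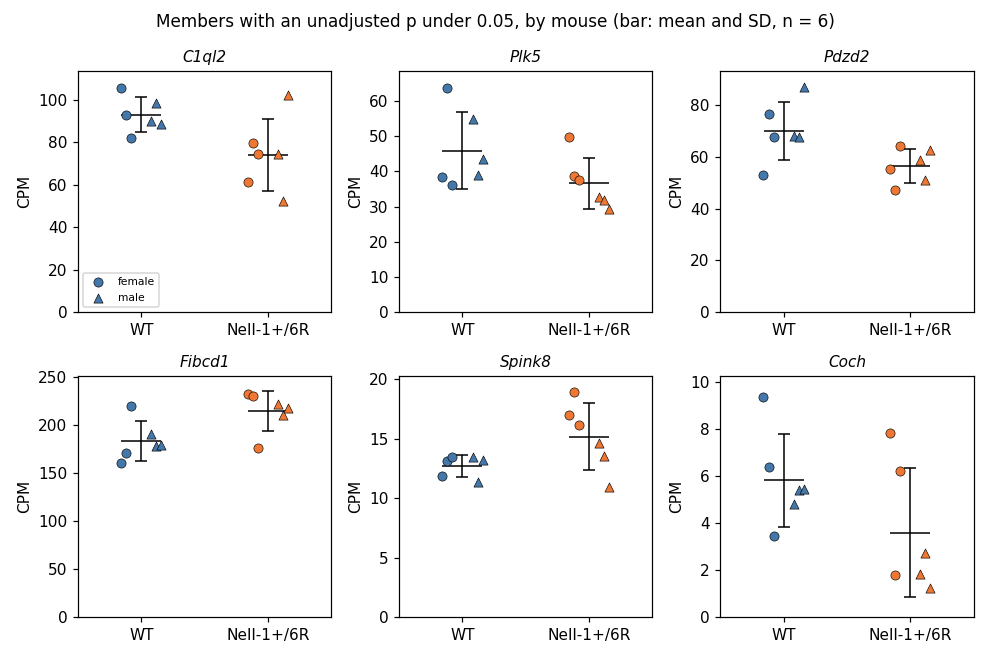
CPM by mouse of the 6 genes with an unadjusted p under 0.05, WT in blue and Nell-1+/6R in orange, circles for females and triangles for males, with the mean and SD of 6 mice as a bar and each axis starting at 0. In every panel the genotypes overlap. C1ql2 is below all WT mice in 5 of 6 Nell-1+/6R mice and Spink8 above all of them in 5 of 6.

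None of the 4 genes shared by several fields was called, and their log2 fold changes lay from -0.05 to 0.10. Neurod2 was between 248 and 355 CPM in WT with a median of 295 and between 251 and 346 in Nell-1+/6R with a median of 309, at 0.03 (SE 0.10). Neurod6 was between 156 and 218 CPM in WT and between 176 and 220 in Nell-1+/6R, at 0.10 (SE 0.08). Bcl11b and Zbtb20, zinc finger factors of granule and pyramidal cells, were at -0.04 (SE 0.07) and -0.05 (SE 0.10). The genotypes overlapped in all 4.

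None of the 4 CA3 genes was called, and 3 of them were higher, where 50.3% of all genes were lower. Nectin3, an adhesion molecule at synaptic junctions, had the largest difference, with 14.8 to 21.6 CPM and a median of 16.5 in WT against 12.2 to 27.9 and a median of 20.7 in Nell-1+/6R. Its log2 fold change was 0.26 (SE 0.16, unadjusted p = 0.12, edgeR), and female Nell-1+/6R replicate 1 was the lowest of all mice. Nectin3 was called without that mouse, without female WT replicate 3 and in males alone. Dkk3 was between 451 and 528 CPM in WT and between 474 and 542 in Nell-1+/6R. All 6 Nell-1+/6R mice were above the WT median of 469, at a log2 fold change of 0.08 (SE 0.05, unadjusted p = 0.16, edgeR). Bok, of the Bcl-2 family, was at 0.08 (SE 0.11), and Iyd, the iodotyrosine deiodinase, at -0.13 (SE 0.15).

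None of the 5 CA2 genes was called. Map3k15 had the largest difference, at 1.71 to 4.22 CPM with a median of 2.53 in WT and 1.27 to 2.99 with a median of 1.90 in Nell-1+/6R, which rests on 48 counts or fewer per mouse. The log2 fold change was -0.41 (SE 0.25, unadjusted p = 0.12, edgeR). It ran from -0.57 to -0.23 when 1 mouse was left out, with 1 of those 12 fits calling it (without female Nell-1+/6R replicate 1), and was -0.02 in females alone and -0.80, called, in males alone. Pcp4 was between 46.2 and 65.6 CPM in WT and between 37.1 and 67.9 in Nell-1+/6R, at -0.06 (SE 0.12). Rgs14, which restrains plasticity in CA2, was at 0.04 (SE 0.09), the adhesion molecule Amigo2 at 0.04 (SE 0.09) and the ETS factor Etv1 at 0.19 (SE 0.18).

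Among mossy cell and other genes, Coch was called lower. Coch encodes cochlin, a secreted matrix protein first known from the inner ear. Its level was 3.48 to 9.35 CPM with a median of 5.43 in WT and 1.27 to 7.82 with a median of 2.27 in Nell-1+/6R. The 3 male Nell-1+/6R mice and female Nell-1+/6R replicate 2 were below every WT mouse, while the other 2 female Nell-1+/6R mice lay above the WT median. The log2 fold change was -0.79 (SE 0.35, unadjusted p = 0.040, adjusted p = 0.9995, edgeR), and the call was lost in 8 of the 12 fits that left out 1 mouse. It was also lost in edgeR with genotype alone, without the 4 mice with the most choroid plexus RNA (-0.81), and in females alone, at -0.27 against -1.42 in males alone. Leptomeningeal genes moved with it. All 12 of that list were lower in Nell-1+/6R, 8 were called, and their median log2 fold change was -1.08, where 50.3% of all genes were lower and 3.26% called. The 4 Nell-1+/6R mice that were low in Coch had summed leptomeningeal levels of 72.9 to 129 CPM, and the other 2 had 413 and 248 CPM. The split rests on Igf2 and Slc13a4 in 1 of these 2. Over the other 10 genes the 4 mice had 33.2 to 72.6 CPM, female Nell-1+/6R replicate 1 lay among them at 53.75, and female Nell-1+/6R replicate 3 was at 121. Whether tissue from the meninges takes part in the difference in Coch was not tested. Calb2 was between 13.1 and 27.7 CPM in WT and between 17.6 and 31.6 in Nell-1+/6R, at 0.26 (SE 0.20). It was not called in all mice, but was without female WT replicate 3 and in males alone. The tetraspanin Tspan18 was at 0.18 (SE 0.14) and the contactin Cntn6 at 0.03 (SE 0.19).

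**Figure D5:**
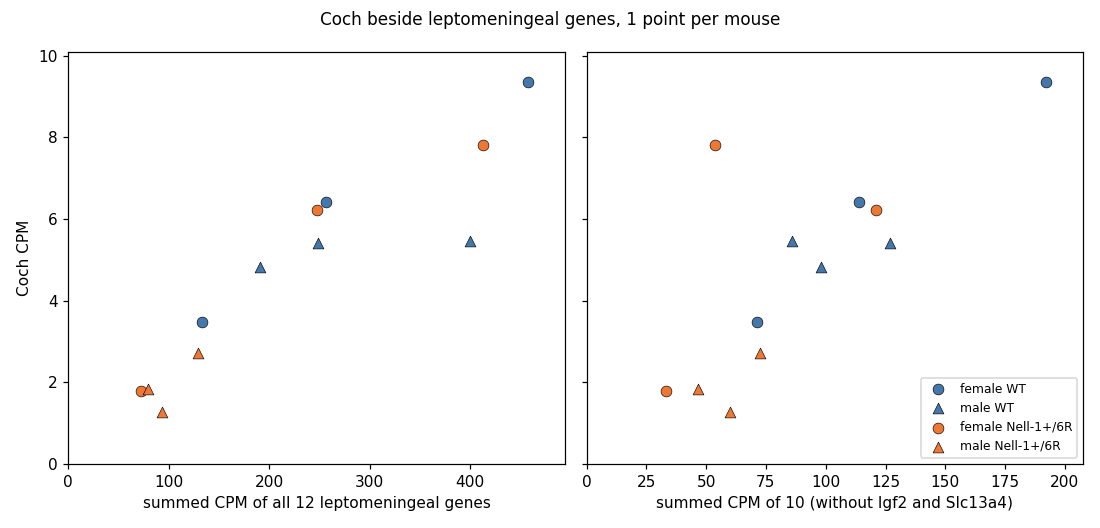
Coch in CPM against the summed CPM of all 12 leptomeningeal fibroblast genes (left) and of the 10 without Igf2 and Slc13a4 (right), with 1 point per mouse, blue for WT and orange for Nell-1+/6R, circles for females and triangles for males. Female Nell-1+/6R replicate 1, at 7.82 CPM of Coch, moves from 413 CPM on the left to 53.75 CPM on the right, among the mice low in Coch.

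The sexes were then compared. Averaged over genotype, 3 of the 36 genes were called at an unadjusted p under 0.05, where 4.72% of all genes were, and none at an adjusted p under 0.05, where 0.0335% were (edgeR). Tspan18 had 23.8 to 43.5 CPM in females with a median of 34.2 and 35.4 to 47.2 in males with a median of 43.6, at a log2 fold change of 0.37 for males over females (SE 0.14, unadjusted p = 0.017, edgeR). Its 2 lowest mice were female WT replicates 1 and 2. Dsp was higher in males by 0.50 (SE 0.20, unadjusted p = 0.025, edgeR) and Coch lower in males at -0.83 (SE 0.35, unadjusted p = 0.034, edgeR). The ranges of the sexes overlapped in each of these genes.

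The genotype difference was also estimated within each sex, in a model of all 12 mice. In females 2 of the 36 genes were called, Spink8 and Trpc6, where 2.84% of all genes were. In males 8 were called, where 3.37% of all genes were. They were Plk5, Pdzd2, Maml2, Map3k15 and Coch on the lower side and Mpped1, Nectin3 and Calb2 on the higher side. The genes called differed when only the mice of 1 sex were fitted. Females alone gave C1ql2 and Spink8 and not Trpc6, and males alone lost Maml2 and gained Dsp, Fibcd1 and Neurod6. Of the 36 genes, 23 had the same direction in both sexes and 13 had opposite directions, where 9924 of all 17937 genes had opposite directions. By set, the dentate median was -0.13 in females and -0.28 in males. The CA2 median was 0.12 in females and -0.10 in males, and the shared median 0.06 and -0.11. The mossy cell set had a median of -0.07 in females, where 3 of its 4 genes were lower, and 0.13 in males. The difference between the sexes was not shown for any of them, since no interaction had an unadjusted p under 0.05 among the 36 genes, where 3.09% of all genes did. The smallest belonged to Spink8, at 0.44 (SE 0.13) in females and 0.04 (SE 0.13) in males, with an interaction p of 0.053 (adjusted p = 0.99, edgeR). Neurod2 followed, at 0.21 (SE 0.13) in females and -0.14 (SE 0.13) in males, with an interaction p of 0.073 (adjusted p = 0.99, edgeR).

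Other genes used as markers of the same cell types were looked at beside the list. They too were chosen with earlier results of these data known and are no independent test. These counts stand beside the 3.26% of all genes that were called and the 50.3% that were lower. All 4 further dentate genes were lower in Nell-1+/6R, at a median of -0.17 on the log2 scale, and 1 was called. That gene was Dock10, a guanine nucleotide exchange factor, at 66.1 ± 4.02 CPM in WT and 55.4 ± 8.24 in Nell-1+/6R (SD, n = 6), which is -0.25 on the log2 scale (SE 0.09, unadjusted p = 0.010, edgeR). All 4 further CA3 genes were higher, with a median of 0.23, and 2 were called. They were the kainate receptor subunit Grik4 at 0.24 (SE 0.09, unadjusted p = 0.025, edgeR) and the synaptic scaffold Homer3 at 0.23 (SE 0.10, unadjusted p = 0.037, edgeR). Of 6 further CA2 genes 5 were lower and 1 higher, and the 1 called was the higher one, Vit. One of the lower ones, Sostdc1, is also a choroid plexus gene, at 9.88 to 37.9 CPM in the 4 mice rich in choroid plexus RNA and 1.57 to 3.59 in the others, and without it 4 of 5 were lower. The direction of the 6 differed by sex, with 0 lower in females (median 0.20) and 5 lower in males (median -0.40), and 3 had an interaction p under 0.05. Both further mossy cell genes were higher and neither was called. Of 14 general principal neuron genes, among them Slc17a7 and Camk2a, 10 were higher and 4 lower, none was called, and the median was 0.06. Their summed levels overlapped between genotypes, at 14910 to 19280 CPM summed in WT and 16160 to 18090 in Nell-1+/6R.

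Markers of neighbouring tissue and of other cells ranged as follows beside these differences, where 3.26% of all genes were called and 50.3% were lower. The thalamus and habenula list held 12 genes, of which Gbx2 and Pou4f1 were too low to be tested. Summed levels of the list were 131 to 176 CPM in WT and 110 to 148 in Nell-1+/6R. Of the 10 genes tested, 9 were lower and 3 called, at a median of -0.19 on the log2 scale. One of the 3 was Slc17a6, the vesicular glutamate transporter of thalamic neurons, at 17.8 ± 2.69 CPM in WT and 7.60 ± 1.72 in Nell-1+/6R (SD, n = 6). It was the only gene of the comparison lists past the adjusted threshold, with genotypes that did not overlap, at -1.23 (SE 0.15, adjusted p = 0.0035, edgeR). Also called were Synpo2 at -0.45 (SE 0.16) and Ntng1 at -0.17 (SE 0.07). Among the uncalled, Tcf7l2 was at -0.19 (SE 0.17), Prkcd at -0.10 (SE 0.18) and Rora at -0.09 (SE 0.15). The 1 higher gene was Tac2 at 0.26 (SE 0.18). Of 8 neocortex genes, 7 were lower and 3 called, at 224 to 265 CPM in WT and 201 to 235 in Nell-1+/6R. All 12 interneuron genes were above 0 over both sexes and 2 were called, Sst and Pvalb, but 7 of the 12 were lower in females and 1 in males. Their sums were 622 to 698 CPM in WT and 635 to 775 in Nell-1+/6R. All 10 choroid plexus genes and all 8 oligodendrocyte genes were lower over both sexes and none was called. Within the sexes the choroid plexus genes went opposite ways, with 0 of 10 lower in females (median 0.79) and 10 of 10 lower in males (median -3.47), where 6 were called. Of the oligodendrocyte genes, 1 of 8 was lower in females and 8 of 8 in males. Of 8 striatum genes 7, of 8 astrocyte genes 7, of 6 microglia genes 4 and of 6 endothelial genes 5 were lower, and 1 of these, the endothelial gene Tek, was called. Lower in both sexes were 2 striatum genes, 2 astrocyte genes, 1 microglia gene and 1 endothelial gene. Of the neocortex genes 4 and of the thalamus and habenula genes 7 were lower in both sexes, where 4047 of all 17937 genes were. The part of tissue boundaries in the dentate and CA1 differences was not tested.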

How the data were processed

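Hippocampal RNA of 12 mice was sequenced. The authors deposited raw read counts per Entrez gene ID, made per their processing notes with HISAT2 2.1.0 on mm10 and featureCounts 2.0.1, with no normalization and no pooling. Columns were assigned to mice through their short labels, with 0 left over. From these counts, CPM were computed with TMM factors. Genes that reached 0.2 CPM in 2 or more mice entered edgeR 4.0.16 (R 4.3.3, quasi-likelihood test, sex and genotype as terms, Benjamini-Hochberg adjustment over 17937 genes). A model of 4 groups gave the difference within each sex and the interaction. SE is the log2 fold change divided by the square root of F. The fit was tested on simulated data with known changes. Total counts of 10834905 to 16016317 limit the precision of low genes, such as Map3k15 and Coch. The p-values set the genotype difference against the spread between these animals that is left after sex and genotype. Litters are not given in the labels and were not modelled. No pair of mice had counts that agree within sampling noise.

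Length-scaled levels use the union of GENCODE M21 exons (GRCm38, the build mm10), and promoters are RefSeq sequences on GRCm38.p6. Spread is the SD within genotype of log2 CPM (prior count 2). The genes, their order into subfields and all comparison lists were chosen with earlier results of these data known, so no list was tested and each is described by counts and a median. Full values were given by rule to Nell1, to every gene with an unadjusted p under 0.05 or with genotypes apart, and in each subfield to the highest, most different and most variable gene. For sex and interaction they were given to genes passing the adjusted threshold or, with none, to the 2 with the smallest p, and Coch, called for sex as well, was added. Genes of the comparison lists that are named were chosen after their values were seen.

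Alternatives were DESeq2 1.42.0 and its size factors, upper-quartile factors, limma-voom (limma 3.58.1) with and without sex, edgeR without sex, a replicate block, 3 other filters, 1 mouse left out, and each sex alone. Leaving out the 4 mice with the most choroid plexus RNA was added after seeing the data.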

Additional observations from a re-analysis of the deposited data

Results flagged for a closer look

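Within a genotype, 3 of the 36 genes had 1 mouse far from the 5 others, by Dixon's test at the 95% level. Among 72 groups of 6 values tested (each gene in each genotype), 4 were singled out, and chance alone gives about 1 in 20. Fibcd1 was 176 CPM in female Nell-1+/6R replicate 3, with the 5 others at 210 to 232. Mpped1 was 248 CPM in the same mouse, with the others at 289 to 314, and 251 CPM in male WT replicate 3, with the others at 274 to 278. Dkk3 was 528 CPM in female WT replicate 3, with the others at 451 to 474. No cause was tested.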

How the results depend on the processing

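The count of 6 genes at an unadjusted p under 0.05 was 4 to 6 under the other tools, scalings and filters, 3 to 9 when 1 mouse was left out, 2 in females alone and 10 in males alone. Over all genes, 3.26% were called in the main fit and 2.61% to 3.34% under the other tools, scalings and filters. That share was 2.14% to 5.12% without 1 mouse, 1.95% in females alone and 5.12% in males alone. The count of 3 came without Nell-1+/6R female replicate 2 or either of the Nell-1+/6R males numbered 1 and 2, and the count of 9 without female WT replicate 3. Without the 4 mice with the most choroid plexus RNA, which leaves fewer mice, the count was 4 (Dsp, Maml2, Pdzd2 and Plk5), and 1.75% of all genes were called. No gene passed the adjusted threshold in any setting. The 1 gene past a fold of 1.5 became 0 in edgeR with genotype alone, in females alone and without those 4 mice, 3 in males alone, and 0 to 1 when 1 mouse was left out. Fibcd1 and Pdzd2 were called in all 12 fits without 1 mouse, C1ql2 in 9, Spink8 in 5, and Coch and Plk5 in 4 each, and no called gene changed direction. The labels do not say whether replicate numbers pair the mice. Same-numbered mice of opposite genotype deviated together with r of 0.17, 0.17 and 0.55 in females and 0.23, -0.57 and 0.07 in males. So few and so uneven values cannot decide whether the numbers mark pairs. With a replicate block within sex, 5 genes were called and Spink8 was not.

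Signs turned only in genes that were not called: in 12 of the 36 without 1 mouse or another, in 10 in females alone, in 5 in males alone, in 4 without the 4 mice, and in 1, Cntn6, both with the replicate block and in limma-voom. Values follow for those with full statistics. In females alone the log2 fold change was -0.0596 for Calb2, 0.0643 for Dsp, -0.0702 for Man1a, -0.0067 for Nectin3 and 0.12 for Pcp4, and in males alone it was -0.14 for Neurod2. Without the 4 mice it was -0.0578 for Neurod2. When 1 mouse was left out, it ran from -0.0523 to 0.253 for Man1a, from -0.0221 to 0.0932 for Neurod2 (below 0 without female WT replicate 1 or Nell-1+/6R female 1 or 2) and from -0.135 to 0.0253 for Pcp4. The others were Bcl11b, Cntn6, Iyd, Lypd1 and Zbtb20 in females alone, Glis3, Pou3f1, Rgs14 and Tdo2 in males alone, Lypd1, Pou3f1 and Rgs14 without the 4 mice, and Amigo2, Bcl11b, Bok, Cntn6, Lypd1, Pou3f1, Rgs14, Tdo2 and Zbtb20 when 1 mouse was left out. In females alone the mossy cell set median was -0.0679, and in males alone the set medians were -0.10 for shared genes and -0.09 for CA2 genes. The cause was not tested. A prior count of 0.5 left the 8 most variable genes the same. Without division by exon length, 8 of the 36 genes kept their rank within their subfield. Depth limits Map3k15, at 48 counts or fewer per mouse.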
